A study of Mus musculus with 6 samples.

Results

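Transcript levels of 8 mouse genes tied to extracellular trap release and lytic cell death were examined in neutrophils from infected corneas: the peptidylarginine deiminase genes Padi2, Padi3 and Padi4, the necroptosis genes Zbp1, Ripk1, Ripk3 and Mlkl, and Hmgb1, which encodes a nuclear protein that dying cells release. The 8 genes were chosen by name, with earlier results of these data known. Their symbols were matched to Ensembl identifiers through GENCODE M21, out of 54838 genes in the count tables. The neutrophils were sorted by flow cytometry 24 h after corneal infection with PAO1, a laboratory strain of Pseudomonas aeruginosa. They came from wild-type mice (3 libraries) or from Il1a-/- mice, which lack the cytokine IL-1 alpha (3 libraries), and mice of both genotypes were infected. The labels give neither mouse strain nor age. The labels number biological replicates and name no animals, so each p-value measures the spread between these libraries, which may be partly technical. The design asks what the loss of IL-1 alpha does to neutrophil gene expression during infection.

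Peptidylarginine deiminases convert arginine in proteins to citrulline. PAD4, the product of Padi4, enters the nucleus and citrullinates histones, which loosens chromatin and is a step towards neutrophil extracellular traps, the webs of DNA and granule proteins that neutrophils expel around bacteria. Necroptosis is a regulated lytic death: RIPK1, downstream of TNF receptors, or ZBP1, a sensor of Z-form nucleic acid, engages the kinase RIPK3 through a shared interaction motif. RIPK3 then phosphorylates MLKL, which oligomerises and breaks the plasma membrane. Ruptured cells release HMGB1, which acts on receptors such as RAGE and the Toll-like receptors.

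The libraries held 22855676 to 33626008 gene counts. Il1a, the deleted gene, was at 5116, 6195 and 8776 CPM (counts scaled to a common library size by the TMM method) in wild type and at 2.89, 5.37 and 5.15 CPM in the knockout, so each library carried the Il1a level of its label. Along the first principal component knockout replicate 2 lay far from the rest (67.3, with the other 5 libraries between -32.9 and 2.1). The sum of neutrophil markers was high throughout (10 genes, together 28574 to 33938 CPM in wild type against 27253 to 30365 CPM in the knockout). It rests mainly on S100a8 and S100a9, and Ly6g was at 9.91 to 15.9 CPM. Of the 10 markers, 2 were higher in the knockout, with a median log2 fold change of -0.09. Retnlg and Cd177 had an unadjusted p under 0.05 in edgeR, both lower in the knockout, and 0 were called. The 16 monocyte and macrophage markers summed to 591 to 641 CPM in wild type against 713 to 743 CPM in the knockout, and 0 of them were at 0 in all libraries. That sum rests mainly on Cd68, Csf1r and Adgre1; of the 15 markers tested, 13 were higher in the knockout, with a median log2 fold change of 1.6. At an unadjusted p under 0.05 there were 8; edgeR and limma-voom called 0 after adjustment and DESeq2 called 3 (C1qb, Pf4 and F13a1). The 9 corneal epithelial markers summed to 21.3, 163 and 95.6 CPM in the wild-type libraries and to 26.9, 134 and 38.6 CPM in those of the knockout, highest in replicate 2 of each genotype. Of 9 T and NK cell markers, 6 were at 0 in all libraries. In such bulk samples, fewer cells of a type and less RNA per cell cannot be told apart.

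None of the 8 genes passed the test for a difference between the genotypes. Of the 6 with enough counts to be tested, 0 passed an adjusted p of 0.05 in edgeR's quasi-likelihood test, against 0.101% of the 11924 genes tested (12 genes). At an unadjusted p under 0.05 there were also 0, against 5.99% of all tested genes. DESeq2 and limma-voom called 0 of the 8 as well, against 69 and 12 genes over the whole table. The 2 groups overlapped in CPM for all 8 genes, of which 2 had too few counts to be tested. Over all genes tested, the groups did not overlap for 11.6%. At that share, 0 in so small a set is not a contrast. The median log2 fold change of the 6 was -0.02 (range -0.14 to 0.34, knockout minus wild type), and that of all tested genes was 0.0.

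**Figure D1:**
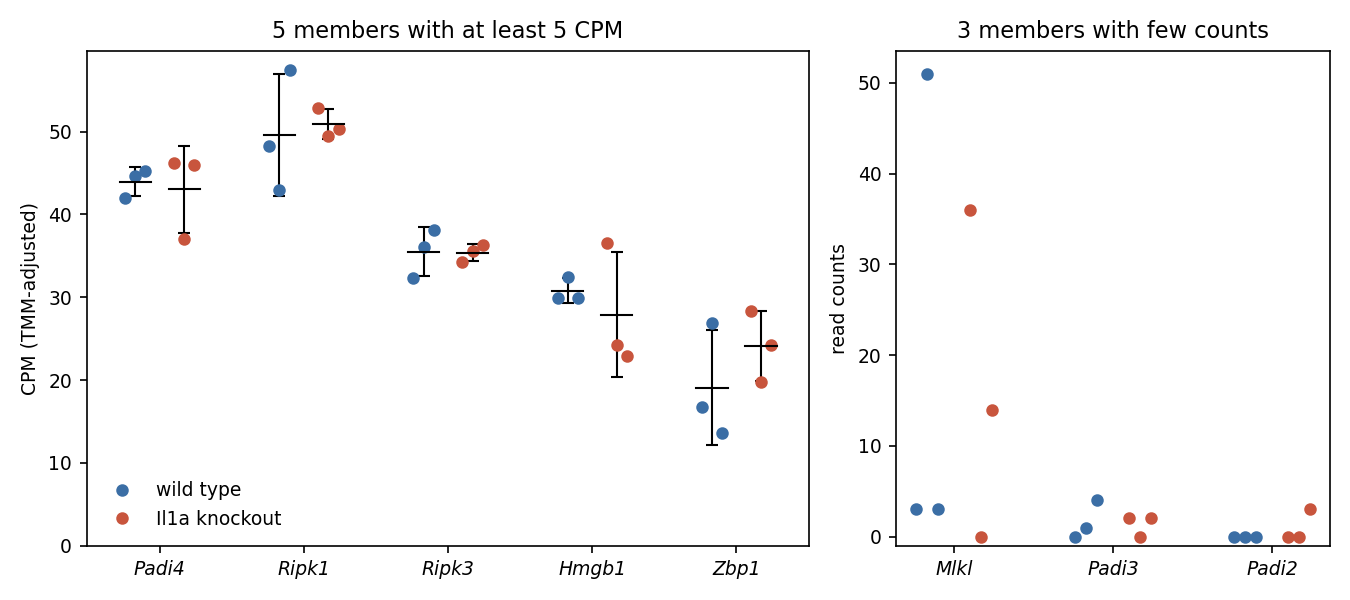
Levels of the 8 genes in each library (blue, wild type; red, Il1a knockout; 3 libraries each), as TMM-adjusted CPM with mean and SD for 5 genes (left) and as read counts for the 3 genes with few counts (right). The 2 genotypes overlap for every gene, and Mlkl runs from 0 to 51 counts within 6 libraries.

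Among the deiminases, Padi4 was the only one at a level that could be tested. Padi4 (ENSMUSG00000025330, GRCm38 chromosome 4, 140745865 to 140774236, minus strand) was at 42.0, 44.7 and 45.2 CPM in wild type and at 46.2, 37.0 and 46.0 CPM in the knockout. The knockout held both the highest and the lowest of the 6 values, and the lowest was replicate 2, the library that stood apart. Means were 43.9 ± 1.74 and 43.1 ± 5.23 CPM (SD, n = 3 each), and the log2 fold change was -0.03 (SE 0.14, 95% interval -0.33 to 0.27, edgeR adjusted p = 0.99). On the linear scale the interval runs from 0.79-fold to 1.21-fold. Without knockout replicate 2 the log2 fold change was 0.06, so its sign was not fixed by these libraries.

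Padi2 and Padi3 lie in the same region of chromosome 4 as Padi4, with Padi3 the nearer, and were at the limit of detection. Padi2 (ENSMUSG00000028927, 140906344 to 140952586, plus strand), a deiminase known from macrophages and many other tissues, had 0 counts in 5 libraries and 3 counts in knockout replicate 3. A count of 0 allows up to 3 counts, which here is 0.0925 to 0.131 CPM depending on the library. Padi3 (ENSMUSG00000025328, 140785365 to 140810648, minus strand), known from hair follicle and skin, had 0, 1 and 4 counts in wild type against 2, 0 and 2 in the knockout. The ratio of its counts, knockout over wild type, was 0.82 with an exact 95% counting interval from 0.16 to 3.79. Intervals and floors of this kind cover counting error only.

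Padi4 therefore made up nearly all deiminase reads. Over the 5 Padi genes of the mouse, the libraries held 7673 counts, of which 7637 were from Padi4 (99.5%). The share was 100%, 99.9% and 99.7% in wild type against 99.9%, 98.1% and 99.4% in the knockout. The lowest share came from 23 counts of Padi6, the oocyte family member, in knockout replicate 2, and Padi6 had 0 counts in the other 5 libraries. Padi1 had 1 count in knockout replicate 3 and 0 elsewhere.

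Other genes of trap formation were not called either. Of 26 genes on the list of deiminases, oxidase subunits, granule proteases and other trap factors, 15 were tested, 0 passed in either direction in edgeR, DESeq2 or limma-voom, and 2 had an unadjusted p under 0.05. The median log2 fold change of the list was -0.02. Over all tested genes, edgeR called 0.101%, so 0 in a list this small is not a contrast. An unadjusted p under 0.05 was found for 5.99% of all tested genes. The 2 list genes with such a p were subunits of the NADPH oxidase, whose superoxide is one trigger of trap release. Cybb, the catalytic subunit gene, was at 84.8, 85.1 and 134 CPM in wild type against 132, 136 and 152 CPM in the knockout, and these ranges overlapped (log2 fold change 0.47, 95% interval 0.07 to 0.87, edgeR adjusted p = 0.78). Ncf1, which encodes the organising subunit p47phox, was at 827 to 889 CPM in wild type against 962 to 1058 CPM in the knockout without overlap (log2 fold change 0.25, edgeR adjusted p = 0.80). The most abundant other members were Rac2, a small GTPase of the oxidase, at 1360 ± 110 and 1314 ± 92.5 CPM, and Lmnb1, the nuclear lamina gene, at 812 ± 39.1 and 746 ± 68.8 CPM (SD, n = 3 each). Neither was called. The proteases and peroxidase that coat trap DNA are made early in the bone marrow, and Mpo, Elane, Ctsg and Prtn3 had too few counts to be tested. Mpo had 12, 1 and 0 counts in wild type against 1, 0 and 2 in the knockout, and Prtn3 had 18, 7 and 4 against 9, 0 and 0. Elane, the elastase gene, had 89 counts (2.86 CPM) in wild-type replicate 3 and 0 in the other 5 libraries.

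Ripk1 and Ripk3, the necroptosis kinases, were present in every library at steady levels. Ripk1 (ENSMUSG00000021408, chromosome 13, 34002363 to 34037147, plus strand), which is also a scaffold for NF-kB signalling, was at 48.3, 43.0 and 57.5 CPM in wild type and at 52.9, 49.5 and 50.3 CPM in the knockout. The 3 knockout values fell inside the wild-type range. Means were 49.6 ± 7.32 and 50.9 ± 1.79 CPM (SD, n = 3 each), with a log2 fold change of 0.04 (SE 0.14, 95% interval -0.27 to 0.35, edgeR adjusted p = 0.99). The sign turned when wild-type replicate 2 (-0.06) or knockout replicate 1 (-0.0012) was left out. The Ripk1 exons overlap those of Serpinb6a on the other strand over 241 bases, and summing the strand-specific columns raised the Ripk1 total from 8855 to 10008 counts. They also overlap Gm17084, a processed pseudogene annotated on the same strand, over 511 bases, and in this counting layout reads there go to neither gene.

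Ripk3 (ENSMUSG00000022221, chromosome 14, 55784995 to 55788865, minus strand) was at 32.3, 36.1 and 38.1 CPM in wild type and at 34.3, 35.6 and 36.3 CPM in the knockout. All knockout values again lay inside the wild-type range. Means were 35.5 ± 2.97 and 35.4 ± 1.04 CPM (SD, n = 3 each), with a log2 fold change of -0.0043 (95% interval -0.30 to 0.29, edgeR adjusted p = 1.0). Ripk3 varied least of the tested genes of the set: its SD of log2 CPM within groups was 0.09, against 0.13 for Padi4, 0.15 for Ripk1, 0.27 for Hmgb1 and 0.40 for Zbp1, and a median of 0.20 over the 5663 tested genes averaging 5 CPM or more.

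**Figure D2:**
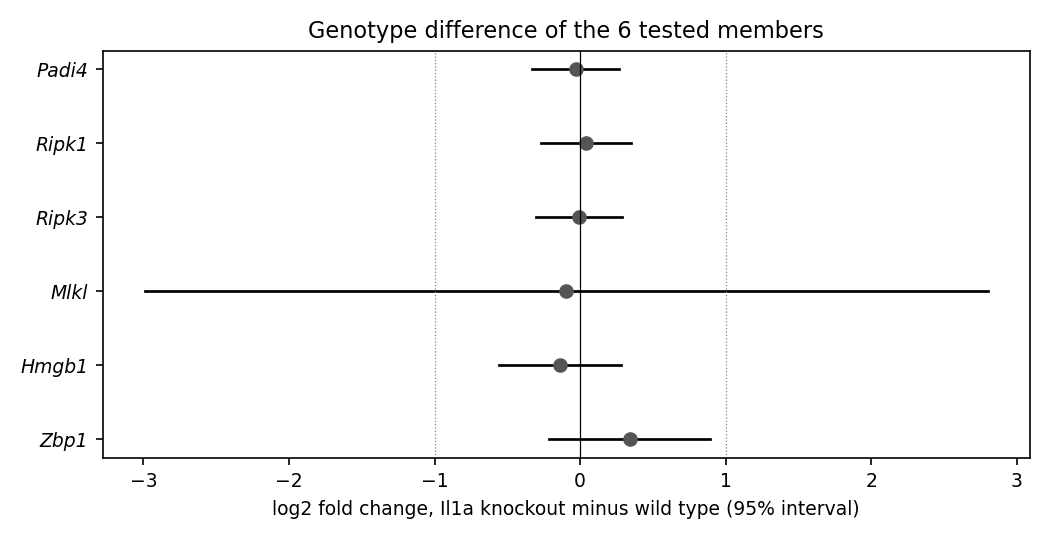
Log2 fold change (knockout minus wild type, edgeR) with its 95% interval for the 6 tested genes; dotted lines mark a 2-fold change. The intervals of Padi4, Ripk1, Ripk3, Hmgb1 and Zbp1 lie within a 2-fold change in either direction, and that of Mlkl runs from -2.99 to 2.80.

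Mlkl, the executioner, was scarce and uneven. Mlkl (ENSMUSG00000012519, chromosome 8, 111311797 to 111338177, minus strand) had 3, 51 and 3 counts in wild type against 36, 0 and 14 in the knockout, which is 0.112, 1.64 and 0.0965 CPM and 1.13, 0 and 0.611 CPM. Each genotype held libraries with and without an appreciable level, and most reads came from wild-type replicate 2 and knockout replicate 1. The SD of log2 CPM within groups was 1.83, against a median of 0.34 over all tested genes. That median covers genes of all levels. At mean levels near the 0.599 CPM of Mlkl, the SD was 0.54 for Ms4a7, 0.70 for Kera and 1.85 for Kdr. Kdr thus matched Mlkl in spread, while Ms4a7 and Kera lay well below it. Mlkl was not ranked against all genes of its level. The log2 fold change was -0.10 with a 95% interval from -2.99 to 2.80 (SE 1.3, edgeR adjusted p = 0.99), so a 4-fold difference in either direction lies within the interval, which reflects the spread between libraries. Single libraries set its sign: it was 2.43 without wild-type replicate 2, 0.48 without knockout replicate 2 and -1.07 without knockout replicate 1.

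Zbp1, the sensor, had the largest difference of the 6 tested genes, and it did not pass the test. Zbp1 (ENSMUSG00000027514, chromosome 2, 173206612 to 173218923, minus strand) lies 43.9 Mb from Il1a on the same chromosome. It was at 16.7, 26.9 and 13.6 CPM in wild type and at 28.3, 19.8 and 24.2 CPM in the knockout. Wild-type replicate 2 was above 2 of the 3 knockout libraries, and the groups overlapped. Means were 19.1 ± 6.95 and 24.1 ± 4.25 CPM (SD, n = 3 each), with a log2 fold change of 0.34 (SE 0.25, 95% interval -0.21 to 0.89, edgeR unadjusted p = 0.20, adjusted p = 0.94). Leaving out 1 library gave 0.14 (without wild-type replicate 3) to 0.67 (without wild-type replicate 2). Of the monocyte and macrophage markers 13 of 15 were also higher in the knockout (median log2 fold change 1.6), and their part in the Zbp1 values was not tested.

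Zbp1 is an interferon-induced gene, and its level varied from library to library together with other interferon-induced genes. The 32 genes of a type I interferon response list, Zbp1 not among them, summed to 1457, 2297 and 1316 CPM in wild type and to 1800, 1403 and 1988 CPM in the knockout. Within wild type the order of the 3 libraries was the same for the list and for Zbp1, with replicate 2 highest and replicate 3 lowest. In the knockout replicate 2 was lowest for both, but the list was highest in replicate 3 (1988 CPM) and Zbp1 in replicate 1 (28.3 CPM). Over the 6 libraries, Pearson's r between the log2 CPM of Zbp1 and of the 26 list genes averaging 5 CPM or more had a median of 0.74 (range 0.36 to 0.97), and 25 of the 26 exceeded 0.5. Over all 5662 genes of that abundance the median r was -0.04, and 12.0% exceeded 0.5. The 2 genes most like Zbp1 among the 5662 were Ifi27l2a (r = 0.980) and Ifit1bl2 (r = 0.979), whose names place them in interferon-induced families; neither is on the list. Ifi27l2a was at 23.5, 42.9 and 16.1 CPM in wild type against 47.1, 30.4 and 32.4 CPM in the knockout. These correlations rest on 6 shared libraries, the list genes are not independent of each other, and no test is attached to them.

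For the other genes of the set these correlations were lower. The median r with the 26 list genes was 0.40 for Padi4, and 11 of the 26 exceeded 0.5, against 16.5% of all genes compared. It was 0.09 for Ripk3 and 0.04 for Hmgb1. Above 0.5 were 0 and 1 of the 26, against 21.8% and 23.8% of all genes compared. For Ripk1 it was -0.56, and 0 of the 26 were above 0, while its median r over all genes compared was 0.02. Mlkl was too sparse for this comparison. Its 3 highest libraries, wild-type replicate 2 and knockout replicates 1 and 3, were the 3 with the highest interferon sums and the highest Zbp1 levels. This match rests on 51, 36 and 14 Mlkl counts. It was not set against other sparse genes, and a link of Mlkl with interferon genes was not tested. Of the list itself, 31 of 32 genes were tested, with a median log2 fold change of 0.06. By edgeR, DESeq2 or limma-voom 0 were called, against 0.101% of all tested genes in edgeR. At an unadjusted p under 0.05 there was 1, against 5.99% of all tested genes. That gene was Bst2, an antiviral tether, at 1.99 ± 0.956 and 3.6 ± 0.310 CPM (SD, n = 3 each; edgeR adjusted p = 0.82). The most abundant were Samhd1, a nucleotide hydrolase gene (337 ± 51.1 and 352 ± 75.6 CPM), Oasl2 (151 ± 43.1 and 155 ± 11.8 CPM) and Trim30a (147 ± 28.7 and 154 ± 15.1 CPM). Oas1a, a double-stranded RNA sensor gene named for its p, was at 18.3 ± 7.30 and 24.4 ± 3.27 CPM.

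**Figure D3:**
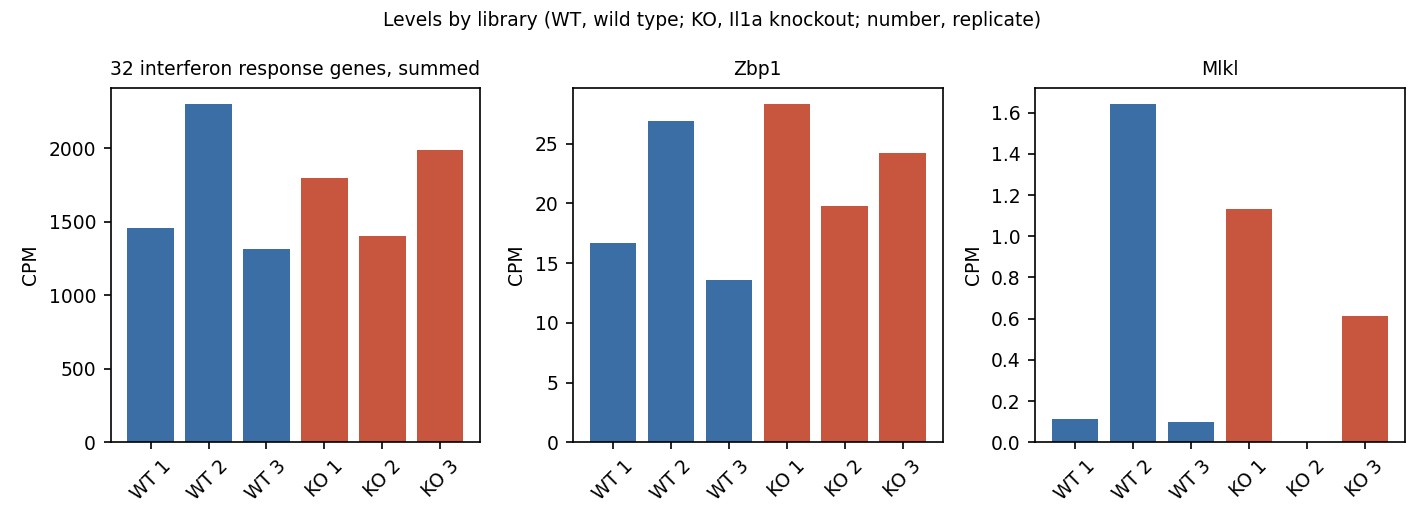
CPM in each library for the sum of 32 type I interferon response genes (left), Zbp1 (middle) and Mlkl (right); bars are single libraries, blue for wild type and red for Il1a knockout. Wild-type replicate 2 and knockout replicates 1 and 3 are the 3 highest libraries in every panel. For Mlkl they hold only 51, 36 and 14 counts, in that order.

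Promoter sequences were searched for motifs of interferon signalling and of the myeloid factor PU.1, since Zbp1 varied with interferon genes. RefSeq windows (GRCm38.p6, 250 bases before to 50 after a start) were at hand for 7 of the 8 genes, with 2 starts each for Ripk1 and Hmgb1; Zbp1 was not among them. The letters GAAANNGAAA (the core of an interferon-stimulated response element, ISRE), TTCNNNGAA (a STAT-type site, GAS) and GAGGAAGT (PU.1 type) were sought on both strands. Of the 9 windows 1 held a match, that of the downstream Ripk1 start, which had the ISRE-like and 2 GAS-like matches. Of all 32851 windows, 3.44% held the ISRE-like letters, 8.3% the GAS-like and 3.2% the PU.1-like. The Ripk1 matches are shown 5′ to 3′ on the plus strand with the matched letters in capitals, at chr13:34002766-34002774, chr13:34002863-34002871 and chr13:34002869-34002878. The last 2 overlap each other and lie at the start.
Ripk1 GAS-like, upstream: agaagctggtTTCCCGGAAggggcggagg
Ripk1 GAS-like, at the start: acttcaaacgTTCCCGGAAatcgaaaagc
Ripk1 ISRE-like, at the start: aacgttcccgGAAATCGAAAagcgcggaac
A match describes letters and not a bound site. The r of Ripk1 with all 26 interferon genes was below 0, and a link between the matches and these values was not tested.

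Hmgb1, the alarmin gene, did not pass the test, and its count is less certain than the others because the mouse genome holds many copies of it. Hmgb1 (ENSMUSG00000066551, chromosome 5, 149046702 to 149184489, minus strand) was at 29.9, 32.5 and 29.9 CPM in wild type and at 36.6, 24.2 and 22.9 CPM in the knockout. The wild-type libraries were close together, while the knockout held the highest value of all and the 2 lowest. Means were 30.8 ± 1.5 and 27.9 ± 7.59 CPM (SD, n = 3 each), with a log2 fold change of -0.14 (SE 0.19, 95% interval -0.56 to 0.28, edgeR adjusted p = 0.97). It was -0.40 without knockout replicate 1 and -0.02 without knockout replicate 3.

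A search of the GENCODE M21 transcripts found 127 other genes with at least 90% identity to an Hmgb1 transcript over at least 50% of their own length, of which 119 are in the count tables and 49 had counts. The same search found 0 such copies of Padi2, Padi3, Padi4, Ripk3, Mlkl and Zbp1, and for Ripk1 it found 1, Gm17084, which lies wholly within Ripk1 exons, so that its 0 counts follow from the way overlapping genes are counted. The Hmgb1 copies held 1853 counts over the 6 libraries, beside 5213 for Hmgb1 itself. In wild type they summed to 11.9, 9.43 and 7.24 CPM and in the knockout to 9.24, 12.1 and 14.4 CPM. Hmgb1 and its copies together came to 40.3 ± 2.75 CPM in wild type, against 39.8 ± 5.27 CPM without Il1a (SD, n = 3 each). The first 60 coding bases of Hmgb1 are shown beside those of 4 copies. These are the 4 with the most counts among 60 copies that were kept. A copy was kept if it aligned over the whole stretch, was in the count tables and differed at few of its bases. Copies on 1 chromosome were left out. Closeness over this stretch was thus a condition for being shown, and it does not describe the copies that were left out. Capitals mark bases that differ from Hmgb1.
Hmgb1: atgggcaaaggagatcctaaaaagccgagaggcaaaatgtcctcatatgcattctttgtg
Hmgb1-ps8: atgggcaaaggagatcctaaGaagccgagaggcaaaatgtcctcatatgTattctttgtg
Gm7890: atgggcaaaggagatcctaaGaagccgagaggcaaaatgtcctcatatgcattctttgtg
Gm5842: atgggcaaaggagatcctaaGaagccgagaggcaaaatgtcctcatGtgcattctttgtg
Gm47820: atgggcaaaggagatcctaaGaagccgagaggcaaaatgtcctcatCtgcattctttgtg
The copies differ from Hmgb1 by 2, 1, 2 and 2 of these 60 bases. They had 484, 104, 64 and 29 counts over the 6 libraries. The copy with the most counts of all, Gm8288 (719 counts, 93.4% identity), was not among the 60.

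Levels of different genes were compared per length, as CPM per kilobase of merged exons. Ripk3 was highest, at 14.1 to 16.6 CPM per kb over the 6 libraries, and it was above Padi4 (7.66 to 9.55) without overlap. Zbp1 (3.86 to 8.03), Ripk1 (5.16 to 6.89) and Hmgb1 (4.56 to 7.29) followed with overlapping ranges, and their order changed between libraries. Padi4 was above Zbp1 in 6 of 6 libraries, although their ranges touched. Mlkl was at 0 to 0.713 CPM per kb, below Hmgb1 in 6 of 6 libraries without overlap, and Padi3 and Padi2 did not exceed 0.0373 and 0.0261. Among the tested genes, the mean level of Ripk3 stood at percentile 87.0, Padi4 at 80.8, Zbp1 at 75.8, Ripk1 at 75.6, Hmgb1 at 75.3 and Mlkl at 19.2. The order at the top depended on the length used: per kilobase of the principal transcript, Padi4 had a median of 19.4 CPM per kb and Ripk3 of 19.0, with overlapping ranges. On either length the kinase Ripk3 was far above its substrate gene Mlkl, with medians of 15.7 and 0.157 CPM per kb over merged exons and 19.0 and 0.183 over the principal transcript.

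**Figure D4:**
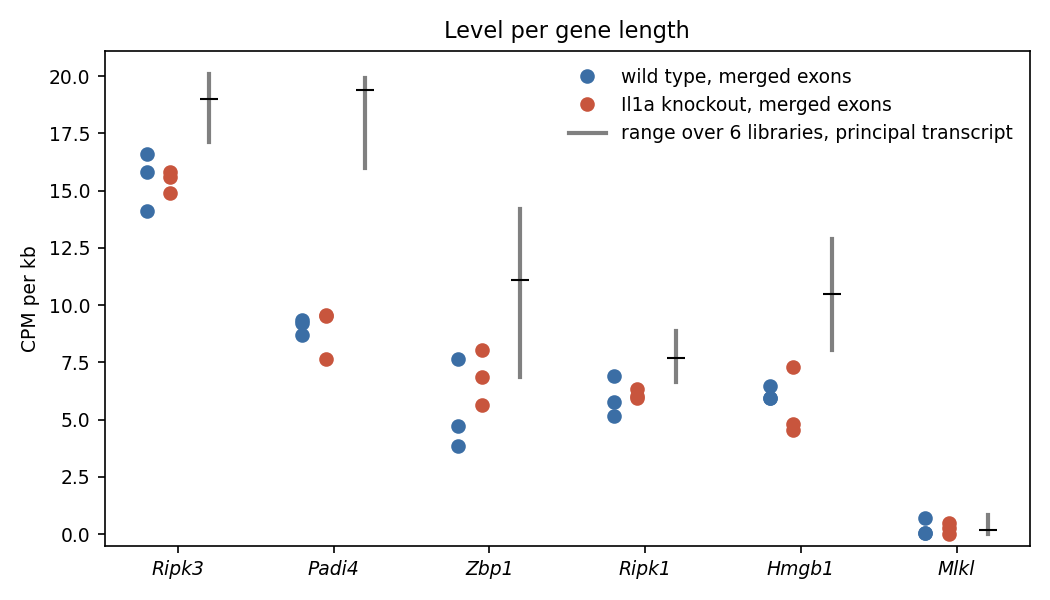
CPM per kilobase for 6 genes: points are single libraries over merged exons (blue, wild type; red, Il1a knockout), and grey bars give the range over the 6 libraries with the median as a tick when the principal transcript length is used. Ripk3 and Padi4 lead on both lengths, and Mlkl is near 0 on both.

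The lists of genes around this pathway held no called gene either. Over all tested genes, edgeR called 0.101%, so 0 in lists this small is not a contrast. An unadjusted p under 0.05 was found for 5.99% of all tested genes. Both shares apply to each list below. Of 18 genes upstream of necroptosis (TNF, death receptors, Toll-like and interferon receptors and their adaptors), 16 were tested and 0 were called by edgeR, DESeq2 or limma-voom, 0 had an unadjusted p under 0.05, and the median log2 fold change was 0.0. Tnf, the ligand that starts RIPK1 signalling, was at 759, 826 and 928 CPM in wild type against 919, 892 and 1225 CPM in the knockout, with overlap (log2 fold change 0.27, 95% interval -0.05 to 0.59, edgeR adjusted p = 0.87). Birc3, a ubiquitin ligase of the TNF receptor complex, was at 821 ± 34.7 and 794 ± 25.3 CPM, and the death receptor gene Fas at 543 ± 61.0 and 519 ± 34.2 CPM (SD, n = 3 each). Ifnar1, a type I interferon receptor subunit, was at 268 ± 43.7 and 305 ± 6.64 CPM. Fadd, the adaptor that brings caspase-8 to RIPK1, had 0 counts in wild-type replicates 1, 2 and 3, against 5, 10 and 0 in the knockout.

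Of 24 genes that restrain or shape RIPK1 signalling, all 24 were tested, 0 were called by edgeR, DESeq2 or limma-voom, and 2 had an unadjusted p under 0.05 (median log2 fold change -0.01). Levels ranged widely within the list. Tnfaip3, which encodes the ubiquitin-editing enzyme A20, was at 4768 ± 716 and 4795 ± 461 CPM. Mapkapk2, whose kinase phosphorylates and restrains RIPK1, was at 3052 ± 502 and 2952 ± 202 CPM, and Cflar, which encodes the caspase-8 partner cFLIP, at 845 ± 106 and 868 ± 41.9 CPM (SD, n = 3 each). Xiap, an inhibitor of apoptosis gene that also limits RIPK3-driven death, was at 22.7, 24.6 and 18.4 CPM in wild type against 27.9, 35.9 and 33.0 CPM in the knockout without overlap, and it did not pass (log2 fold change 0.56, 95% interval 0.19 to 0.93, unadjusted p = 0.0066, edgeR adjusted p = 0.57). Tab3, an adaptor of the TAK1 kinase, was at 18.4 ± 1.48 and 13.2 ± 2.84 CPM (edgeR adjusted p = 0.79).

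Downstream of MLKL, ESCRT-III proteins repair the punctured membrane and NINJ1 ruptures dying cells. Of 17 genes of repair and release, 16 were tested, 0 were called by edgeR, DESeq2 or limma-voom, 1 had an unadjusted p under 0.05, and the median log2 fold change was -0.14. That gene was Chmp6, an ESCRT-III subunit gene, at 3.32 ± 0.299 and 1.89 ± 0.353 CPM (SD, n = 3 each; log2 fold change -0.81, 95% interval -1.5 to -0.13, edgeR adjusted p = 0.77). Chmp4b, the main ESCRT-III filament gene, was at 47.7 ± 2.83 and 40.9 ± 2.83 CPM. Ninj1 was at 977 ± 83.5 and 1032 ± 30.9 CPM, Vps4b, the ATPase that recycles ESCRT-III, at 699 ± 155 and 697 ± 38.0 CPM, and the membrane raft gene Flot1 at 215 ± 6.58 and 196 ± 4.07 CPM.

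Of 21 genes of the HMGB family and its receptors and regulators, 20 were tested, 0 were called by edgeR, DESeq2 or limma-voom and 0 had an unadjusted p under 0.05 (median log2 fold change -0.05). Hmgb2, the close relative of Hmgb1 and chosen with its values known, was at 78.7 ± 10.7 and 65.3 ± 11.1 CPM. The receptor genes Tlr2 (1177 ± 43.6 and 1211 ± 165 CPM) and Trem1 (1854 ± 112 and 1801 ± 134 CPM) were abundant in both genotypes, as was Cd14, a co-receptor of Toll-like receptors. Havcr2, which encodes the inhibitory receptor TIM-3, was at 11.7 ± 2.18 and 15.5 ± 2.29 CPM, and Siglecg, an inhibitory sialic acid receptor gene, at 6.65 ± 1.44 and 9.29 ± 2.81 CPM (SD, n = 3 each).

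**Figure D5:**
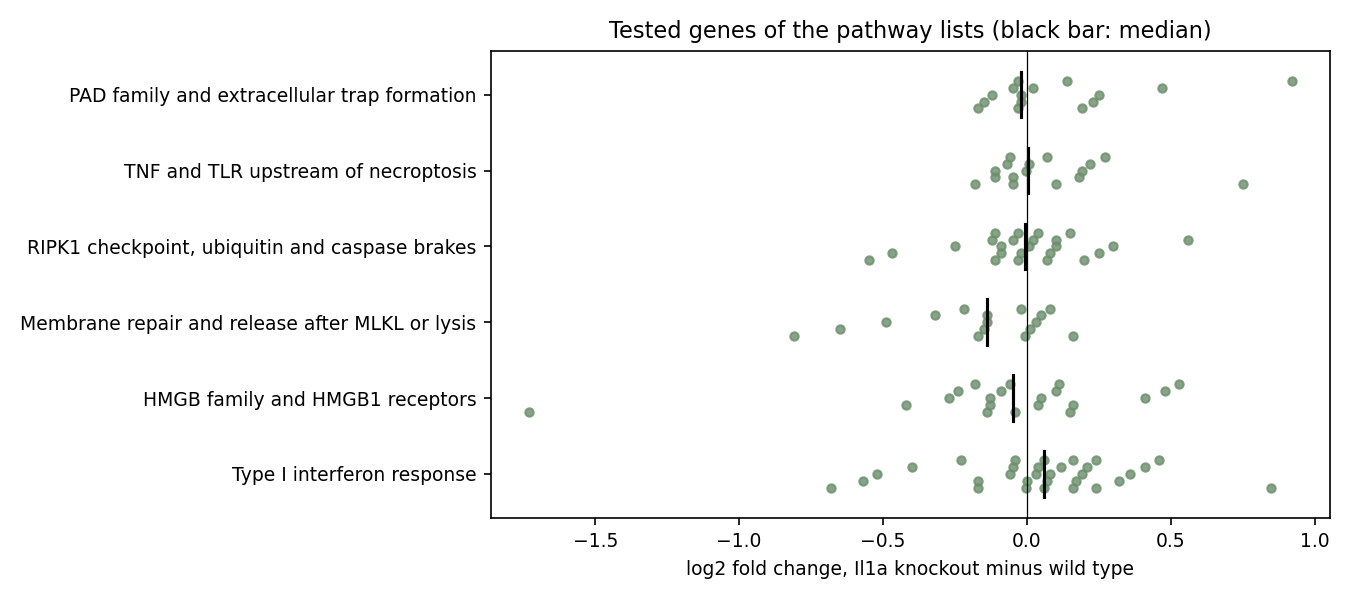
Log2 fold change (knockout minus wild type) of each tested gene on 6 pathway lists; each point is a gene and each black bar the median of its list. The medians lie between -0.14 and 0.06, and 0 of the genes plotted passed an adjusted p of 0.05 in edgeR, against 0.101% of all tested genes.

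By the rule of highest Pearson r over the 6 libraries, the genes most like Padi4 were Cd2bp2 (r = 0.986) and Myo9a (0.984), those most like Ripk1 were Dgkd (0.967) and Dennd3 (0.964), those most like Ripk3 were Zfp830 (0.997) and Lsm8 (0.995), and those most like Hmgb1 were Lsm10 (0.986) and Cers2 (0.982). Each was the highest among 5662 genes compared over only 6 libraries, and no test is attached to these values. Between the genes of the set themselves r lay between -0.51 (Ripk1 with Zbp1) and 0.44 (Padi4 with Hmgb1).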

How the data were processed

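RNA-seq was done on 3 wild-type and 3 Il1a knockout libraries of corneal neutrophils; per the labels' protocols the SMART-Seq v4 kit was used, which does not mark strand. The values the authors deposited are raw whole-number counts for each gene and library in the layout of STAR. STAR 2.7.8a, Trimmomatic 0.39 and FastQC 0.11.9, and the builds mm10 and GRCm38, are listed in the submitters' processing notes. In that layout, reads that map to several places or to overlapping genes are left out. The annotation release is not given in the sources used here; GENCODE M21 matched 54809 of 54838 genes.

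Unstranded counts were filtered by edgeR's expression filter by group (11924 genes), scaled by TMM and fitted with the robust quasi-likelihood test of edgeR 4.0.16 (knockout against wild type; limma 3.58.1, DESeq2 1.42.0, R 4.3.3), with Benjamini-Hochberg adjustment over all tested genes. Log2 CPM used a prior count of 3. The procedure was tested on simulated data. Copies were sought with blastn 2.17.0, and figures drawn with matplotlib 3.10.9.

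The 8 genes and the lists were chosen with earlier results of these data known. Named genes were the 8, Il1a, the 3 most abundant and the 2 with the smallest p per list, and the 2 with the highest r per gene of at least 5 CPM; Mpo, Elane, Prtn3, Fadd, the marker genes, Padi1, Padi6, Hmgb2 and the printed copies of Hmgb1 were chosen after their values were seen. The alternatives were other scalings, filters, count columns and tests, a replicate block and each library left out.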

Additional observations from a re-analysis of the deposited data

How the results depend on the processing

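None of the 8 genes was called under any of the 15 alternatives run, and the adjusted p of the 6 tested genes was at least 0.50 throughout. Padi2 and Padi3 had too few counts for the filter, so no fold change was set against an alternative, and Mlkl had none under the filter of 5 CPM in 3 libraries. Signs near 0 turned: Padi4 gave 0.03 and Ripk3 0.06 with library size alone, and Ripk3 0.00075 with upper quartile scaling, 0.01 with the 5 CPM filter and 0.00098 with the summed strand columns. With library size alone the median of all genes was 0.06. With 1 library left out, log2 fold changes ranged from -0.09 to 0.06 for Padi4, -0.06 to 0.15 for Ripk1, -0.08 to 0.05 for Ripk3 and -1.07 to 2.43 for Mlkl, and kept their sign for Hmgb1 (-0.40 to -0.02) and Zbp1 (0.14 to 0.67). The number of genes called over the whole table was 12, and it was 185 without a filter, 21 with the 5 CPM filter, 69 by DESeq2 and 7 to 24 with 1 library left out (7 without wild-type replicate 1 or 2, 24 without knockout replicate 1). The replicate block called 20 genes and turned Mlkl to 0.86; the labels share only numbers, deviations of same-numbered libraries correlated at 0.14, 0.057 and 0.003, and not every library correlated best with its own number. With the principal transcript length, added after the data were seen, median levels moved from 15.7 to 19.0 CPM per kb for Ripk3, 9.29 to 19.4 for Padi4, 6.24 to 11.1 for Zbp1, 5.98 to 7.71 for Ripk1 and 5.96 to 10.5 for Hmgb1. The same CPM values were divided by the shorter length, so these moves follow from the length alone.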

Other observations

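Elane and Padi6 each had all their counts in 1 library, Elane in wild-type replicate 3 (89 counts) and Padi6 in knockout replicate 2 (23 counts). Elane was called in the fit without a filter and had too few counts to be tested in any other. Tlr3, the double-stranded RNA receptor, had 0, 1 and 4 counts in wild type against 0 in each knockout library, and Hmgb3 had 7, 16 and 11 counts in wild type against 5, 0 and 0 in the knockout. These genes were chosen after their values were seen.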
